A study of Mus musculus with 8 samples.

Results

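Colon epithelial cells of SMS2-knockout mice given dextran sulfate sodium (DSS) were compared with those of untreated SMS2-knockout mice. SMS2 is sphingomyelin synthase 2, the product of Sgms2, which joins a phosphocholine head group to ceramide at the plasma membrane. DSS is a sulfated polysaccharide that mice drink with their water and that injures the colon lining. The comparison rests on 2 arrays of knockout mice given 3.5% DSS for 2 days and 2 arrays of untreated knockout mice, out of 8 arrays in the series. The other 4 arrays are of wild-type (WT) mice, 2 with the same DSS treatment and 2 without, and they served to estimate each gene's spread and to compare the DSS change between genotypes. All groups carried the C57BL/6J background, and all samples were labelled as colon epithelial cells. The labels give neither age nor sex, nor the deleted part of Sgms2, nor whether each biological replicate holds cells of a single animal or of several. P-values therefore measure the spread between these samples. The genes were all non-control rows of the array table with 1 gene symbol, with the row of highest mean kept for each gene, which gave 19505 genes, the same genes as for the series as a whole. Of these, 13003 passed a filter on low signal and were tested, and the 6502 genes of lowest mean were not. The filter used the mean over all 8 arrays, so a gene under background in 1 group could be kept through another.

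The colon epithelium is a single cell layer that takes up salt, water and bile acids and is renewed from stem cells at the crypt base, which depend on WNT signals from the connective tissue beneath them. DSS strips mucus and surface cells, and in the following days neutrophils, monocytes and other immune cells enter the wall. Epithelial preparations from colon also carry some cells of the underlying lamina propria, such as fibroblasts, vessel cells, macrophages and plasma cells. Sphingomyelin, the product of the deleted enzyme, is a membrane lipid, and ceramide, its substrate, is a signalling lipid.

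Signals are on a log2 scale, as deposited. Where 4 values are given for a gene, they are untreated replicate 1, untreated replicate 2, DSS replicate 1 and DSS replicate 2 of the knockout, and a difference is the DSS mean minus the untreated mean with its standard error from limma (n = 2 arrays a group). A gene rose or fell where limma's adjusted p was below 0.05 over all genes tested. Background was the 75th percentile of 5222 negative-control rows on each array, between 6.00 and 6.24. Where both arrays of 1 group lay under it, the change is written as "at least N-fold", a bound, from the bright group's mean signal over the mean of, per array, the higher of that background and the gene's own signal. Array medians ran from 5.93 to 6.09, and between 10113 and 10629 of the tested genes lay above background on each array.

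Sgms2 was low in the knockout with and without DSS. It had signals of 7.30, 7.33, 7.35 and 6.47 in the knockout arrays, against 10.79 and 10.76 in untreated WT and 11.27 and 10.90 in WT with DSS. The difference between the knockout groups was -0.41 ± 0.29 (adjusted p = 0.759). Sgms1, the sphingomyelin synthase of the Golgi, read 8.86, 9.07, 8.40 and 8.55 (-0.49, adjusted p = 0.559), and Samd8, which makes ceramide phosphoethanolamine, read 7.60, 7.67, 8.53 and 7.93 (0.60, adjusted p = 0.476). The groups did not overlap for Sgms1 or Samd8, which was also the case for 16.8% of all tested genes with DSS on the higher side and 22% on the lower side.

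Markers of epithelium were bright in all 4 knockout arrays, and markers of other tissue were present too. All 14 epithelial identity genes on the array lay above background in all 4 knockout arrays, and none of them passed the test. Their mean signal was 15.67 and 15.72 without DSS and 15.60 and 15.65 with DSS. The cadherin Cdh1 read 17.63, 17.48, 17.27 and 17.62, the adhesion molecule Epcam 16.75, 16.59, 16.31 and 16.64, and the keratin Krt8 17.72, 17.63, 17.73 and 17.67. Car1, a carbonic anhydrase abundant in colonocytes, read 19.57, 19.57, 19.42 and 19.36. These genes were bright in every array, and their differences were below 0.2 log2 units in size. The samples were not epithelium alone. All 15 smooth muscle genes on the array lay above background in all 4 knockout arrays. Their mean was 11.77 and 12.01 without DSS and 12.82 and 10.95 with DSS.

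Libraries stood apart in 3 ways. The DSS arrays of the knockout differed more from each other (755 tested genes by over 1 log2 unit, median difference 0.33) than the untreated ones (130 genes, median 0.20). DSS replicate 1 carried transcripts of exocrine pancreas: the amylase Amy2a5 read 5.21, 5.02, 9.61 and 4.59, and the array may not separate the copies of the amylase gene. The 17 pancreatic genes on the array had a mean of 5.90 and 5.77 without DSS and 6.74 and 5.88 with DSS, with 9 of them under background in all 4 arrays, and the mean was 10.69 in WT DSS replicate 1. Leaving out both arrays with these transcripts, a choice made after seeing the data, 71 genes rose and 64 fell, 87 of them shared with the 121 genes that passed with all arrays. The third way is the Y-linked transcripts. Eif2s3y had signals of 2.81 and 3.06 without DSS and 10.19 and 11.30 with DSS (at least 24.0-fold), Uty of 4.75 and 4.99 against 9.29 and 10.67 (at least 14.1-fold), and Kdm5d of 3.69 and 3.65 against 7.50 and 7.88 (at least 2.89-fold). Kdm6a, the X-linked counterpart of Uty that escapes X inactivation, read 11.90, 11.97, 10.82 and 10.41 and fell by 1.32 ± 0.24 (adjusted p = 0.0302). The 4 listed X-linked genes on the array that escape inactivation, Kdm6a among them, had a median difference of -0.81 (-0.80 in WT). In all 4 both DSS arrays lay below both untreated arrays, as in 22% of all tested genes. Their mean was 13.08 and 12.96 without DSS and 12.18 and 12.16 with DSS, and Kdm6a alone passed. The other 4 listed Y-linked genes on the array, Usp9y, Sry, Zfy1 and Zfy2, lay under background in all 4 arrays. In Eif2s3y, Uty and Kdm5d the 4 WT arrays split the same way by treatment. Since each DSS array has these transcripts and each untreated array lacks them, the sex of the mice and the DSS treatment cannot be told apart.

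The genes that rose with DSS in the knockout included 7 of 17 tested fibroblast and matrix genes, 5 of 13 macrophage genes, 4 of 15 vessel genes, 4 of 12 complement genes and the lymphoid chemokine Cxcl13. Those that fell included 9 of 31 genes of xenobiotic and steroid metabolism, 4 of 15 brush border genes, 3 of 9 genes of bile acid transport and sensing, the sulfate importer Slc13a1 and, of 12 stem cell and WNT target genes, Axin2 and Lgr5. Of 13003 genes, 70 rose (0.538%) and 51 fell (0.392%), together 0.931%, and no gene that passed had overlapping groups. The unadjusted p was below 0.05 for 594 genes on the higher side and 644 on the lower. The median difference over all tested genes was -0.04, and the differences ran from -0.61 at the 5th percentile to 0.59 at the 95th. Leaving out predicted genes, 68 named genes rose and 50 fell. Of the 68, 15 lay under background in both untreated arrays, and the other 53 rose by between 1.14 and 3.08 with a median of 1.86. Of the 50, 2 lay under background in both DSS arrays, and the other 48 fell by between 1.16 and 3.96 with a median of -1.61.

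**Figure D1:**
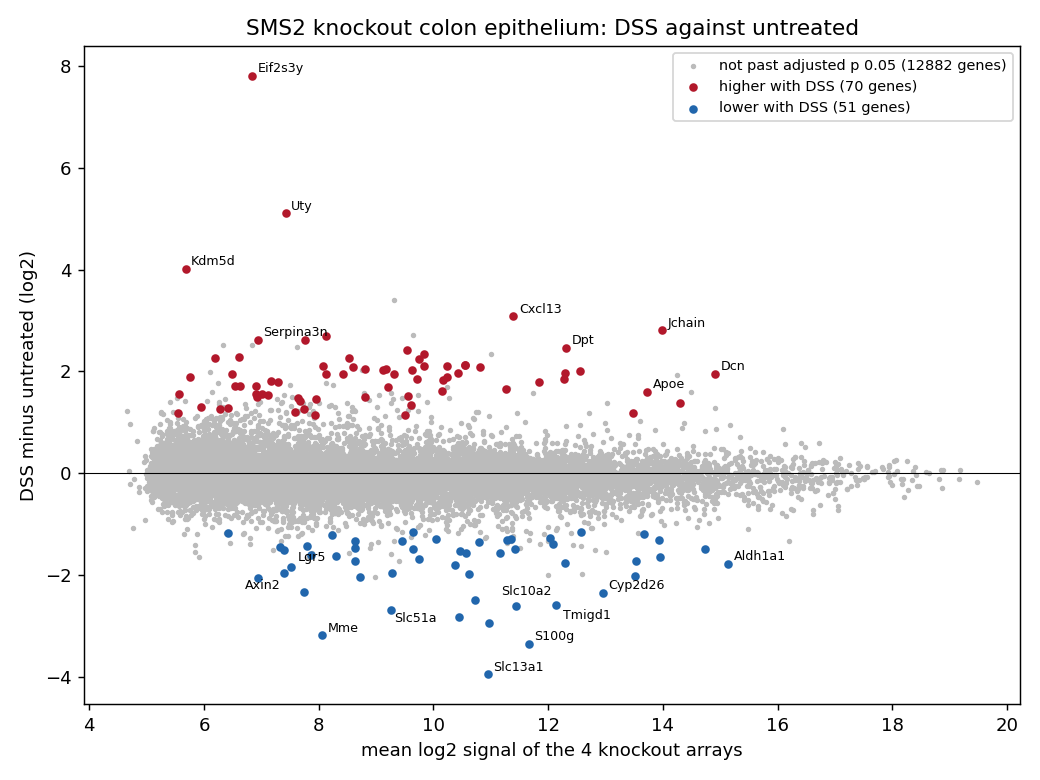
Difference between DSS and untreated knockout arrays (log2) against the mean log2 signal of the 4 knockout arrays, 1 point per tested gene, with genes past limma's adjusted p of 0.05 in red (70 higher) and blue (51 lower). The Y-linked Eif2s3y, Uty and Kdm5d stand highest, from untreated signals under background, and Slc13a1 lowest at -3.96.

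Genes of fibroblasts and the matrix they secrete were the list with the most genes that rose. Of its 17 tested members 7 rose and none fell, and all 17 differences were positive, with a median of 1.38 against -0.04 over all tested genes. In 3 of the 17 both untreated arrays lay under background. The filter could keep such genes through their DSS arrays, so the count of signs is no test. Dpt, which codes for the collagen-binding dermatopontin, read 11.29, 10.87, 14.11 and 12.98 and rose by 2.46 ± 0.36 (adjusted p = 0.0129). Tcf21, a transcription factor of mesenchymal cells, read 7.06, 5.85, 9.43 and 8.71 and rose by 2.61 ± 0.39. In both genes DSS replicate 1 was the highest array. Among the small leucine-rich proteoglycans that bind collagen fibrils, 3 rose. Lum read 8.81, 8.52, 11.26 and 10.76 (2.34 ± 0.37), Dcn 14.13, 13.75, 16.03 and 15.74 (1.95 ± 0.36), and Bgn, which was not on the list, 11.74, 10.98, 13.50 and 12.90 (1.85 ± 0.35). Fbln1, a protein of elastic fibres and basement membranes, read 8.63, 8.62, 11.38 and 10.35 (2.24 ± 0.37). Its relative Efemp1, like Bgn not on the list, read 8.99, 8.58, 11.35 and 10.44 (2.11 ± 0.40). Both untreated arrays lay below both DSS arrays in each of these genes, and the untreated arrays of Tcf21 were the furthest apart. Mgp, an inhibitor of calcification, rose by 1.94 and the collagen-binding Sparc by 1.38. Pcolce, which enhances the processing of procollagen and was not on the list, rose by 1.54. Col3a1, the chain of type III collagen, read 10.05, 9.61, 13.07 and 11.28 (2.34, adjusted p = 0.0535) and did not pass.

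In a bulk preparation, more cells of a type and more RNA per cell cannot be told apart. The mean over all 19 fibroblast and matrix genes on the array was 8.40 and 8.12 without DSS and 10.23 and 9.31 with DSS, and 3 of the 19 (Mfap5, Pi16 and Col14a1) lay under background throughout. DSS replicate 1 carried the larger share of this difference: the list's median stood 2.09 above the untreated mean in replicate 1 and 1.15 in replicate 2. The number of its genes that rose was 1 without DSS replicate 1, 14 without DSS replicate 2, 3 without untreated replicate 1 and 0 without untreated replicate 2. Smooth muscle genes separated the DSS arrays instead of the groups. Their median was 0.91 above the untreated mean in replicate 1 and -1.02 in replicate 2, and none of 15 passed. The smooth muscle intermediate filament gene Des, for example, read 13.39, 13.77, 14.67 and 12.14.

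**Figure D2:**
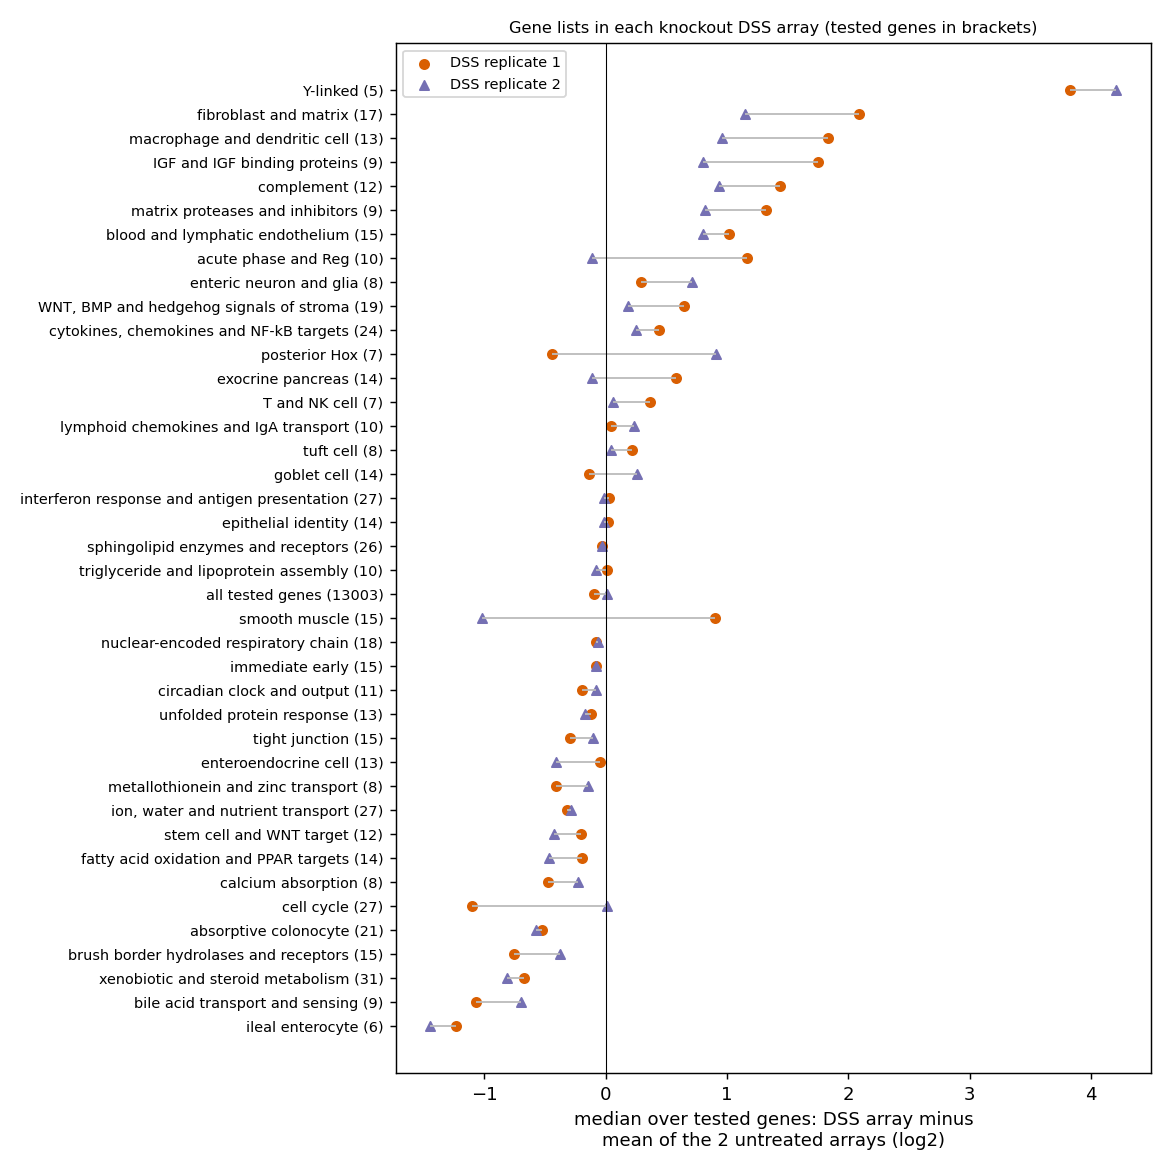
Median change of each gene list with at least 5 tested genes, and of all tested genes, in each knockout DSS array against the mean of the 2 untreated arrays (log2), as circles for replicate 1 and triangles for replicate 2. Fibroblast, macrophage, complement and vessel lists lie right of 0 in both arrays and bile acid, xenobiotic and colonocyte lists left of 0 in both, while smooth muscle and posterior Hox lists lie on opposite sides in the 2 arrays.

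Signals that pass between connective tissue and epithelium were among the genes that rose. Igfbp5, which binds insulin-like growth factors, read 6.84, 6.71, 10.31 and 8.61 and rose by 2.69 ± 0.43 (adjusted p = 0.0154). It was the 1 gene of 9 in the list of insulin-like growth factors and their binding proteins that passed, and the list's median was 1.28. Sfrp1, a secreted inhibitor that binds WNT proteins, read 8.45, 8.22, 11.33 and 10.19 and rose by 2.43 ± 0.33. Bmp4, a ligand that restrains the stem cell compartment, read 9.43, 9.14, 11.61 and 10.74 and rose by 1.89 ± 0.29. These were the 2 of 19 tested genes that passed in the list of stromal WNT, BMP and hedgehog signals. The list's median was 0.33, or 0.24 with signals under background set to that background. The BMP antagonist Grem1 read 8.16, 7.84, 10.18 and 8.96 and did not pass (1.56, adjusted p = 0.121). Growth factors for epithelium that rose were Hgf, the ligand of the receptor Met, from background by at least 2.48-fold, and Nrg1, a ligand of ErbB receptors, by 1.55 ± 0.31. The BMP family member Gdf10 was raised at least 2.37-fold from background, and Ccn2, a matricellular protein induced by TGF-beta, by 1.45. The list of matrix proteases and inhibitors, which also holds Lox and Loxl1, had a median of 1.06 over 9 tested genes. With signals under background set to that background, the median was 0.81. All 9 differences were positive, but 3 of the genes lay under background in both untreated arrays, so that count is no test. None of the 9 passed. Mmp2 came closest with 7.64, 7.85, 10.41 and 9.12 (2.02, adjusted p = 0.0513). Plau, the urokinase gene, which stood on none of the lists, rose from background by at least 1.68-fold. Each gene of this paragraph that rose had a smaller difference without DSS replicate 1 than without DSS replicate 2. The difference was 1.83 against 3.54 for Igfbp5, 1.46 against 2.32 for Bmp4 and 1.29 against 1.61 for Ccn2. Of other settings that left no single array out, Plau passed under 3 of 8 and Nrg1 under 4 of 9. Ccn2 passed under 5 of 9, Hgf under 7 of 9, Gdf10 under 7 of 8, and Igfbp5, Sfrp1 and Bmp4 under 8 of 9.

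Of 13 tested macrophage and dendritic cell genes 5 rose and none fell, and all 13 differences were positive. In 5 of the 13 both untreated arrays lay under background. The filter could keep such genes through their DSS arrays, so the count of signs is no test. The median of the 13 was 1.40, or 1.16 with signals under background set to that background, a choice made after seeing the data. C1qc and C1qb, chains of the complement starter C1q that resident macrophages make, read 5.58, 5.36, 8.16 and 7.37 and 5.20, 4.93, 7.86 and 6.79. Both started under background, and the rise was at least 3.04-fold for C1qc and 2.24-fold for C1qb. Lyz2, the lysozyme of myeloid cells, read 9.26, 9.10, 12.12 and 10.46 and rose by 2.11 ± 0.42 (adjusted p = 0.0454). The receptors for immunoglobulin G moved the same way. Fcgr2b, the inhibitory receptor, read 7.53, 7.27, 10.02 and 9.32 (2.26 ± 0.31), and the activating Fcgr3 8.01, 6.87, 9.64 and 9.14 (1.95 ± 0.34). Spi1, the myeloid transcription factor PU.1, read 7.72, 7.39, 10.42 and 8.85 (2.08 ± 0.41), and Csf1, the growth factor on which macrophages depend, 8.96, 8.62, 11.05 and 10.25 (1.86 ± 0.37). Fcgr2b, Spi1 and Csf1 were not on the macrophage list. Ly6c2, a monocyte antigen, read 8.02, 8.20, 10.09 and 10.19 (2.03 ± 0.28). Its near-identical neighbour Ly6c1, an antigen of vessel cells, rose by 1.79, and the array may not separate the pair.

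Not every myeloid marker was measurable. Of 17 macrophage and dendritic cell genes on the array, 6 lay under background in all 4 arrays, among them Adgre1, Itgax and Cx3cr1, and the mean of the list was 6.28 and 6.05 without DSS and 7.62 and 7.11 with DSS. The count of genes that rose was 2 without DSS replicate 1, 7 without DSS replicate 2, 2 without untreated replicate 1 and 0 without untreated replicate 2. Neutrophil markers stayed low: 9 of 10, including S100a8 and S100a9, lay under background in all 4 arrays. So did all 10 markers of mast cells and eosinophils and 11 of 13 markers of T and NK cells.

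Complement genes other than C1q that rose were Serping1 and C1s1. Serping1, the inhibitor of the C1 proteases, read 9.42, 9.06, 11.36 and 10.79 and rose by 1.83 ± 0.28 (adjusted p = 0.013), and the protease C1s1 rose by 1.49 ± 0.25. With C1qb and C1qc they made 4 of 12 tested complement genes, all 12 with a positive difference and a median of 1.08. In 5 of the 12 both untreated arrays lay under background, and with such signals set to background the median was 0.94. The filter could keep those 5 through their DSS arrays, so the count of positive differences is no test. The count that rose was 1 (C1qc) without DSS replicate 1, 7 without DSS replicate 2, 2 without untreated replicate 1 and 0 without untreated replicate 2. The components C4b and Cfb, induced by inflammation in epithelium, did not pass (0.88 and 0.24). Acute phase genes were mixed. Serpina3n, a protease inhibitor, read 6.02, 5.25, 8.32 and 8.18, a rise from background of at least 4.27-fold. Lcn2, a siderophore-binding protein used as a marker of gut inflammation, rose from background by at least 1.37-fold. The other 8 tested genes of the list did not pass, with Saa1 at 11.28, 11.90, 11.78 and 11.12.

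Lymphoid chemokines and the plasma cell gene Jchain showed some of the largest changes. Cxcl13, which draws B cells into follicles, read 9.63, 10.08, 13.24 and 12.63 and rose by 3.08 ± 0.28 (adjusted p = 0.000486). Jchain, which joins IgA into dimers for export, read 13.06, 12.09, 15.61 and 15.15 and rose by 2.81 ± 0.41 (adjusted p = 0.0129). Cxcl12, a chemokine of stromal cells, read 10.87, 10.01, 12.16 and 12.01 and rose by 1.64 ± 0.30. Ccl21, which guides dendritic and T cells into lymph vessels, is represented by copies that the array cannot fully separate. Ccl21b and Ccl21c had the same values, 9.73, 9.23, 12.15 and 11.07 (2.13 ± 0.34), and Ccl21a read 9.72, 9.16, 11.75 and 11.06 (1.96 ± 0.33). The predicted genes Gm10591 and Gm13304, which rose by 2.01 and 1.97, stood close to these values. Of 10 tested genes in the list of lymphoid chemokines and IgA transport, which holds Ccl21a but not its copies, Cxcl13, Jchain, Cxcl12 and Ccl21a passed, and the median was 0.09. Without DSS replicate 1, and without untreated replicate 2, Cxcl13 was the 1 gene of the list that rose, and the copies Ccl21b and Ccl21c did not pass there either. Pigr, the receptor that carries IgA through epithelium, was level at 18.36, 18.30, 18.29 and 18.46. Of 11 B and plasma cell genes on the array, all except Jchain lay under background in all 4 arrays, including Cd79a, Ms4a1 and Mzb1.

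Inflammatory chemokines were fewer. Ccl11, eotaxin, read 8.19, 8.11, 10.60 and 9.80 and rose by 2.05 ± 0.28. Ccl3 read 6.47, 6.06, 8.43 and 7.71 (1.81 ± 0.34), and Ccl8 rose from background by at least 1.45-fold. With Csf1 these were 4 of 24 tested cytokines, chemokines and NF-kB targets. The median of the list was 0.30, or 0.20 with signals under background set to that background. The count that rose was 1 without DSS replicate 1 (Ccl11) and without untreated replicate 1, 0 without untreated replicate 2, 5 without DSS replicate 2 and 2 without either untreated WT array. Classical cytokines of acute colitis were low or did not pass: Il6, Cxcl2, Cxcl5 and Nos2 lay under background in all 4 arrays, and Il1b read 6.11, 6.22, 8.45 and 6.97 (1.54, adjusted p = 0.128). None of 27 tested interferon and antigen presentation genes passed (median 0.04). The class II chains H2-Ab1, at 9.43, 8.52, 10.46 and 10.54 (1.53, adjusted p = 0.0711), and H2-Eb1, at 6.62, 6.43, 7.96 and 7.58 (1.24, adjusted p = 0.0577), came closest.

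Of 15 tested vessel genes 4 rose and none fell, and all 15 differences were positive, with a median of 0.94. In 2 of the 15 both untreated arrays lay under background, so the filter could keep them through their DSS arrays. Lyve1, a hyaluronan receptor of lymph vessels and some macrophages, read 8.87, 8.36, 11.01 and 10.26 and rose by 2.02 ± 0.30. Eng, a coreceptor for TGF-beta on endothelium, read 6.51, 6.27, 8.76 and 7.60 (1.79 ± 0.34), and Plvap, which forms the diaphragms of fenestrated vessels, 8.98, 8.90, 10.08 and 10.09 (1.14 ± 0.22). The fourth was Ccl21a. The mean of the 16 genes on the array was 7.07 and 6.85 without DSS and 8.19 and 7.70 with DSS. The count of genes that rose was 0 without DSS replicate 1, 6 without DSS replicate 2, 2 without untreated replicate 1, 0 without untreated replicate 2 and 2 without either untreated WT array.

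Further genes that rose deal with oxygen radicals, lipids and cell shape. Gpx3, a secreted glutathione peroxidase, read 10.19, 9.34, 12.11 and 11.57 (2.08 ± 0.30), and Sod3, the extracellular superoxide dismutase, 8.06, 7.52, 10.03 and 9.63 (2.04 ± 0.30). Apoe, the lipid carrier that macrophages secrete, read 13.09, 12.77, 14.79 and 14.26 and rose by 1.59 ± 0.26. Spon2, a secreted matrix protein, read 7.01, 7.02, 9.80 and 8.44 (2.10 ± 0.37). Others that rose were Pltp, which transfers phospholipids between lipoproteins, at 1.19, the actin-severing Gsn at 1.19, the endothelin receptor Ednrb at 1.69, the thrombin receptor F2r at 1.48, the flavin monooxygenase Fmo1 at 1.51, and Ace, the angiotensin-converting enzyme, at 1.14. The X-linked Xlr4c, from background by at least 2.51-fold, and Xlr3a (1.26) rose in the knockout. Smaller or less studied products of connective tissue and vessels that rose were Olfml3 (1.95), Olfml2b (1.50), Mxra8 (1.70), Bicc1 (1.56), Slc43a3 (1.34), Clec3b from background by at least 1.14-fold and Svep1 by at least 1.87-fold. Sorl1, a sorting receptor, rose by 1.62 and the interferon-inducible Ifitm1 by 1.42. The neuropeptide receptor Adcyap1r1 passed with signals of 4.99, 4.94, 6.18 and 6.11, of which DSS replicate 2 alone was above background, so no fold is given.

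**Figure D3:**
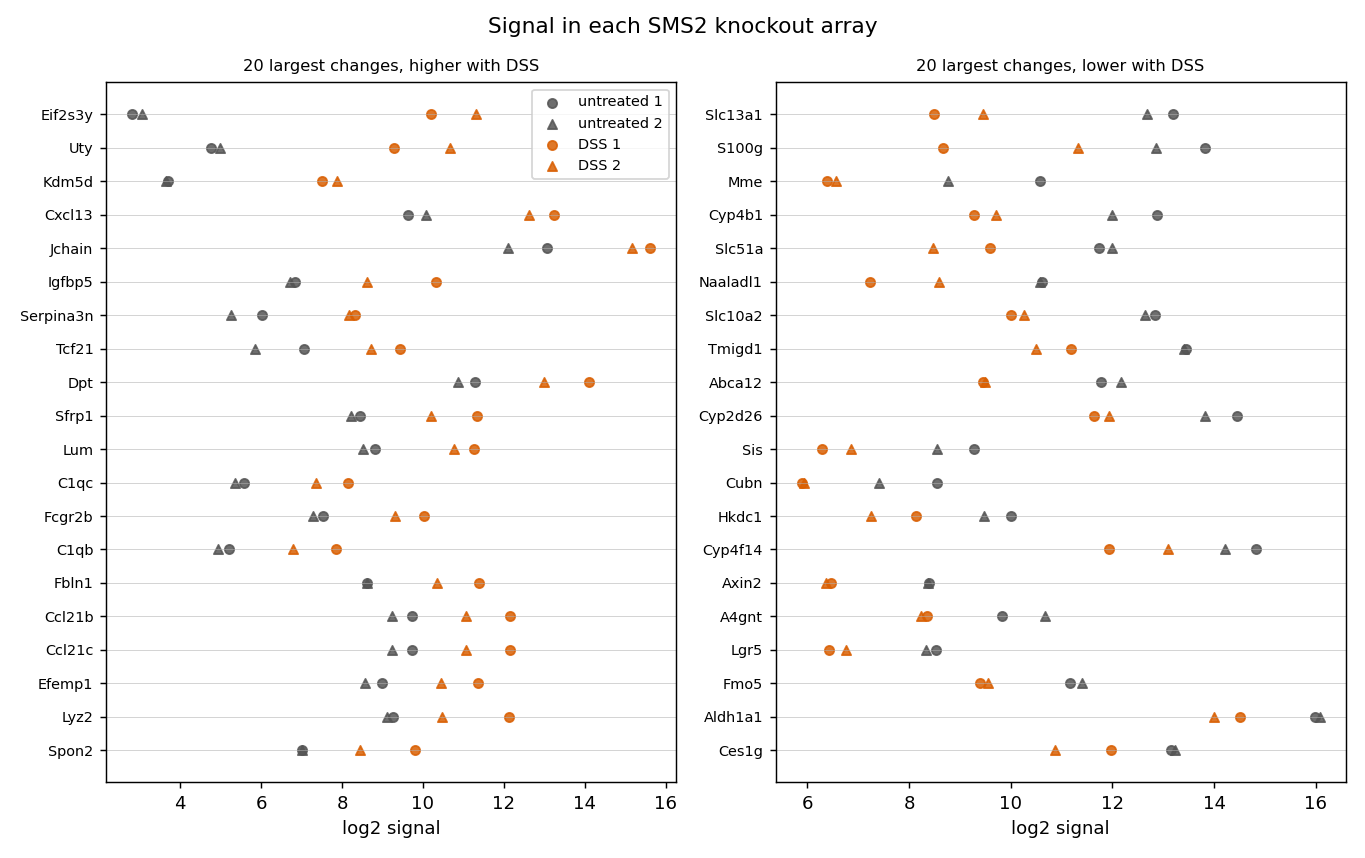
Log2 signal of the 20 genes of largest change in each direction in the 2 untreated (grey) and 2 DSS (orange) knockout arrays, with circles for replicate 1 and triangles for replicate 2. The untreated and DSS points of each gene do not overlap, and S100g shows the widest gap between its DSS arrays, 8.66 and 11.32.

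Transporter genes for sulfate and bile acids were among those that fell most. Slc13a1, which takes up sulfate with sodium, read 13.18, 12.68, 8.50 and 9.45 and fell by 3.96 ± 0.35 (adjusted p = 0.000486). Slc10a2, the apical importer that brings bile acids into ileal and some colonic cells, read 12.84, 12.63, 10.01 and 10.26 and fell by 2.61 ± 0.24 (adjusted p = 0.000677). Slc51a and Slc51b form the basolateral exporter of bile acids. Slc51a read 11.73, 11.99, 9.59 and 8.47 (-2.83 ± 0.33), and Slc51b 14.78, 14.76, 13.67 and 12.58 (-1.64 ± 0.33, adjusted p = 0.0442). Both DSS arrays lay below both untreated arrays in each of these genes. All 9 tested genes of bile acid transport and sensing had a negative difference, with a median of -0.74, and 3 fell. The bile acid receptor Nr1h4 read 12.91, 12.78, 12.18 and 12.17 (-0.67, adjusted p = 0.379), and the ileal bile acid binding Fabp6 7.50, 8.51, 6.85 and 6.49 (-1.33, adjusted p = 0.217). The count that fell was 3 without DSS replicate 1 and 2 without each other knockout array in turn. Other transporters that fell were the citrate and succinate carrier Slc13a2 (-1.32), the cystine transporter subunit Slc3a1 (-1.16), the UDP-sugar carrier Slc35d1 (-1.27) and the prostaglandin carrier Slco2a1, which fell to background by at least 1.83-fold. In all, 2 of 27 tested ion, water and nutrient transport genes fell (Slc13a1 and Slc3a1), with a median of -0.34. The chloride exchanger Slc26a3 read 15.90, 15.81, 14.76 and 15.78 and did not pass.

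Enzymes and receptors of the brush border, the apical surface that digests and absorbs, fell more often than they rose. Naaladl1, an aminopeptidase-like protein, read 10.62, 10.58, 7.23 and 8.58 and fell by 2.69 ± 0.40. Sis, the disaccharidase sucrase-isomaltase, read 9.28, 8.56, 6.29 and 6.85 and fell by 2.34 ± 0.36 (adjusted p = 0.0137). Cubn, the receptor for vitamin B12 bound to intrinsic factor, read 8.54, 7.41, 5.89 and 5.94, a fall to background of at least 3.59-fold. Mme, the peptidase neprilysin, read 10.57, 8.76, 6.38 and 6.55 and fell by 3.19 ± 0.47 (adjusted p = 0.0129). With Ace, which rose, these were 4 lower and 1 higher of 15 tested genes, with a median of -0.49. The lower count was 1 without DSS replicate 1 and without untreated replicate 1, 4 without DSS replicate 2 and 3 without untreated replicate 2. Alkaline phosphatase Alpi was level at 10.55, 10.55, 10.56 and 10.17. Markers of ileum, where several of these genes are brightest, were partly measurable: 6 of 12 on the array, among them Fabp1, Apoa1 and Fgf15, lay under background in all 4 arrays, and 3 of 6 tested fell (Slc10a2, Sis and Apob). Posterior Hox genes, brightest in the distal colon, did not pass (0 of 7 tested). Their median was -0.44 from the untreated mean in DSS replicate 1 and 0.91 in replicate 2, and Hoxb13 read 10.78, 10.13, 10.17 and 12.39.

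Absorptive colonocyte genes had a median of -0.59 over 21 tested, of which 3 fell and none rose. Tmigd1, an adhesion molecule of mature surface cells, read 13.45, 13.41, 11.19 and 10.51 and fell by 2.58 ± 0.28 (adjusted p = 0.00207). The others that fell were Slc51a and Slc51b. The list's median stood at -0.52 in DSS replicate 1 and -0.58 in replicate 2, and the count that fell was 3 without DSS replicate 1 and 2 without each other knockout array in turn. Emp1, a membrane protein of surface cells, read 16.92, 16.82, 15.58 and 15.47 (-1.34, adjusted p = 0.0509), and Krt20, a keratin of mature cells, 16.28, 16.64, 15.80 and 15.55 (-0.78, adjusted p = 0.302). Isx, an intestinal homeobox factor that restrains vitamin A uptake, fell by 1.29 and Car12, a carbonic anhydrase, by 1.54. S100g, the calcium-binding calbindin of intestine, read 13.82, 12.86, 8.66 and 11.32 and fell by 3.35 ± 0.66 (adjusted p = 0.0419). Its difference was -2.02 without DSS replicate 1 and -4.68 without DSS replicate 2. It passed under 5 of 9 other settings that left no single array out. Other named genes passed under fewer of those 9, among them Xlr3a under 3 and Isx, Prap1 and Prss23 under 4 each. S100g was the 1 gene of 8 tested for calcium absorption that fell, and the calcium channel Trpv6 lay under background throughout.

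The promoters of lower genes are shown because several genes that fell code for transporters and enzymes of the intestinal epithelium, and genes of this kind are known targets of the intestinal factors CDX2, HNF1 and HNF4. Of the 50 named lower genes, 43 matched the RefSeq promoter table (assembly GRCm38.p6) with 60 windows of 250 bases before a gene start. The windows were searched on both strands for TTTATG (CDX), GTTAATNAT (HNF1), AAAGTCCA (HNF4) and GGGANTTTC (NF-kB), letters that do not overlap one another in the windows printed here. The CDX letters were in 5 of the 60 windows (8.33%) and in 10.8% of all 32851 windows of the table. The HNF4 letters were in 5 windows (8.33%), of Bche, Cyp2c65, H2-T3, Slc3a1 and Tlr2, and in 1.01% of all windows. The HNF1 letters were in 1 window (1.67%), that of Slc10a2, and in 0.737% of all. The NF-kB letters were in 2 (3.33%), of A4gnt and S100g, and in 0.941% of all. A match is a description and not a binding site. Of the 68 higher genes 49 matched the table, under 80%, so the search is void for them. The windows below run 5′ to 3′ on the gene's strand, with the matched letters in capitals. Sis lies at chr3:72967864-72968113 on the minus strand, with CDX letters from 43 bases before the start. Slc10a2 lies at chr8:5105288-5105537 on the minus strand, with HNF1 letters from 220 bases and CDX letters from 122 bases before the start. Tmigd1 lies at chr11:76901909-76902158 on the plus strand, with CDX letters from 53 bases before the start, in 1 of its 2 windows. Cyp2c65 lies at chr19:39060756-39061005 on the plus strand, with HNF4 letters from 115 bases before the start. Slc3a1 lies at chr17:85028097-85028346 on the plus strand, with HNF4 letters from 38 bases before the start.
Sis: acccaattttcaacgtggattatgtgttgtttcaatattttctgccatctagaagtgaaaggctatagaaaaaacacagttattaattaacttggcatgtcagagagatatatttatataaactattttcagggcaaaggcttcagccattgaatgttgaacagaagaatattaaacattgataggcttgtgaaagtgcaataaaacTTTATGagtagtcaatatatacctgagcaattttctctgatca
Slc10a2: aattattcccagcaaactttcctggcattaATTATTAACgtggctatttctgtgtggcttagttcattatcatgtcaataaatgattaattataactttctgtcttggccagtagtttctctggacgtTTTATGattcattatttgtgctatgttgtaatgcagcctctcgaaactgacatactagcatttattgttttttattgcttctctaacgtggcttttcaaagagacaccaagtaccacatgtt
Tmigd1: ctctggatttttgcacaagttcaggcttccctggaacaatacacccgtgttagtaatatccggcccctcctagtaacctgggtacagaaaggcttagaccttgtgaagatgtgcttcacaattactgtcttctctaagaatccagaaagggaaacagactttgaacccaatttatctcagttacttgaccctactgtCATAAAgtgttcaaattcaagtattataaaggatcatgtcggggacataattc
Cyp2c65: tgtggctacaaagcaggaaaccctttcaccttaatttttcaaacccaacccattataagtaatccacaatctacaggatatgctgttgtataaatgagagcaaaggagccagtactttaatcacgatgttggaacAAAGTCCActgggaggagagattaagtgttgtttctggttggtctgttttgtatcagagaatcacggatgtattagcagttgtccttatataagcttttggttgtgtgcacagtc
Slc3a1: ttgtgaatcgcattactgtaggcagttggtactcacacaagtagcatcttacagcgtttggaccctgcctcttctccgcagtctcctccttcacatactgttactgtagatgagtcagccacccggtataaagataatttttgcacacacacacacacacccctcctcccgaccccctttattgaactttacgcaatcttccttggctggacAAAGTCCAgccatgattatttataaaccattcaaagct

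Among the lists, enzymes that act on drugs, fatty acids and retinoids held the most genes that fell. Of 31 tested genes of xenobiotic and steroid metabolism 9 fell and none rose, and the median was -0.75. Cyp2d26, a cytochrome P450, read 14.45, 13.82, 11.63 and 11.93 and fell by 2.36 ± 0.29 (adjusted p = 0.00463). Cyp4b1 and Cyp4f14 hydroxylate fatty acids and related lipids. Cyp4b1 fell by 2.94 ± 0.47, and Cyp4f14 read 14.83, 14.22, 11.93 and 13.09 and fell by 2.02 ± 0.35. Aldh1a1, which makes retinoic acid from retinal, read 15.98, 16.07, 14.51 and 13.99 and fell by 1.78 ± 0.28. The flavin monooxygenase Fmo5 read 11.16, 11.39, 9.40 and 9.55 (-1.80 ± 0.22), and the carboxylesterase Ces1g 13.14, 13.22, 11.96 and 10.87 (-1.77 ± 0.36). The neighbours Cyp2c65, whose promoter is printed above, and Cyp2c66 fell by 1.50 and 1.40 and are similar enough that the array may not separate them. Abcg2, an efflux pump for drugs and urate, fell by 1.17. The list's median was -0.67 in DSS replicate 1 and -0.81 in replicate 2. The count that fell was 6 without DSS replicate 1, 7 without DSS replicate 2 and 2 without either untreated array.

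Lipid handling showed single changes. Abca12, a lipid transporter best known from skin, read 11.77, 12.16, 9.45 and 9.49 and fell by 2.49 ± 0.30. Pdk4, a PPAR target that turns cells from glucose to fatty acids, read 10.62, 10.56, 9.22 and 8.58 and fell by 1.69 ± 0.30, the 1 gene of 14 tested for fatty acid oxidation that passed. Apob, the scaffold of lipoproteins, fell by 1.34, and Nceh1, a cholesteryl ester hydrolase, by 1.72. Hkdc1, a hexokinase-like enzyme, fell by 2.05 ± 0.34. None of the 26 tested sphingolipid enzymes and receptors passed (median -0.07). The ceramide synthase Cers2 read 11.30, 11.61, 10.63 and 10.86 (-0.72, adjusted p = 0.268), and the sphingomyelinase Smpd3 10.40, 10.42, 11.03 and 10.96 (0.58, adjusted p = 0.452). Neu1, the lysosomal sialidase that trims glycolipids and glycoproteins, fell by 1.58, and A4gnt, which caps mucin sugars with N-acetylglucosamine, read 9.83, 10.67, 8.35 and 8.23 (-1.96 ± 0.29).

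In the list of the WNT-driven stem cell compartment 2 genes fell. Axin2, a feedback inhibitor and readout of WNT signalling, read 8.38, 8.38, 6.46 and 6.37 and fell by 1.97 ± 0.24 (adjusted p = 0.00488). Lgr5, the R-spondin receptor that marks crypt base stem cells, read 8.53, 8.34, 6.42 and 6.76 and fell by 1.84 ± 0.29 (adjusted p = 0.0154). Both DSS arrays lay well below the untreated arrays, which were close to each other. Neither gene passed without untreated replicate 2, and Lgr5 did not pass without untreated replicate 1 or without DSS replicate 1. The other 10 of 12 tested genes on the list did not pass: the median of the list was -0.33 (-0.15 with signals under background set to that background), Sox9 read 13.59, 13.61, 14.10 and 13.71 and Ephb3 7.22, 7.26, 6.80 and 6.87. Ascl2 lay under background in all 4 arrays. Cell cycle genes did not pass (0 of 27, median -0.47), and the DSS arrays differed in them, with a median of -1.10 in replicate 1 and 0.01 in replicate 2. Without DSS replicate 2, 8 of the 27 fell. The mitotic ubiquitin enzyme Ube2c read 11.76, 11.85, 10.29 and 11.16.

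Among other genes that fell were Tlr2, a receptor for bacterial lipoproteins, at -1.36, Arg2, the mitochondrial arginase, at -1.50, Prkg2, a cGMP-dependent kinase, at -1.62, and Lars2, the mitochondrial leucyl-tRNA synthetase, at -1.46. H2-T3, the thymus leukaemia antigen of intestinal epithelium, read 8.49, 8.86, 7.08 and 7.06 (-1.61 ± 0.27). Bche, butyrylcholinesterase, fell by 1.44. Also lower were the secreted Prap1 (-1.74), the serine protease Prss23 (-1.49), the kinase Sgk2 (-1.51), and Pstpip2 (-1.22), Adtrp (-1.19), Tmem252 (-1.57), Lhfpl2 (-1.48), Stra6l (-1.34) and Igsf9 (-1.29). The predicted gene Gm11437 read 11.56, 11.67, 9.68 and 9.56 and fell by 1.99. No gene passed in the lists of goblet cells (14 tested), enteroendocrine cells (13), tuft cells (8), tight junctions (15), the unfolded protein response (13), immediate early genes (15), the circadian clock (11), metallothioneins and zinc transport (8) or the nuclear-encoded respiratory chain (18). The mucin Muc2 read 18.25, 18.41, 18.82 and 18.08, and the peptide hormone gene Sct, secretin, 8.03, 8.04, 7.02 and 6.58 (-1.23, adjusted p = 0.058).

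Higher and lower genes rested on the DSS arrays to different degrees. Of the 70 genes that rose, DSS replicate 1 lay further from the untreated mean in 61, with a median change of 2.24 against 1.55 in replicate 2. Of the 51 that fell, replicate 1 lay further in 21, with medians of -1.52 and -1.89. Without DSS replicate 1, 14 of the 68 named higher genes and 22 of the 50 named lower genes still passed. Without replicate 2, 64 and 32 did. A total of 28 named genes passed with either DSS array left out.

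**Figure D4:**
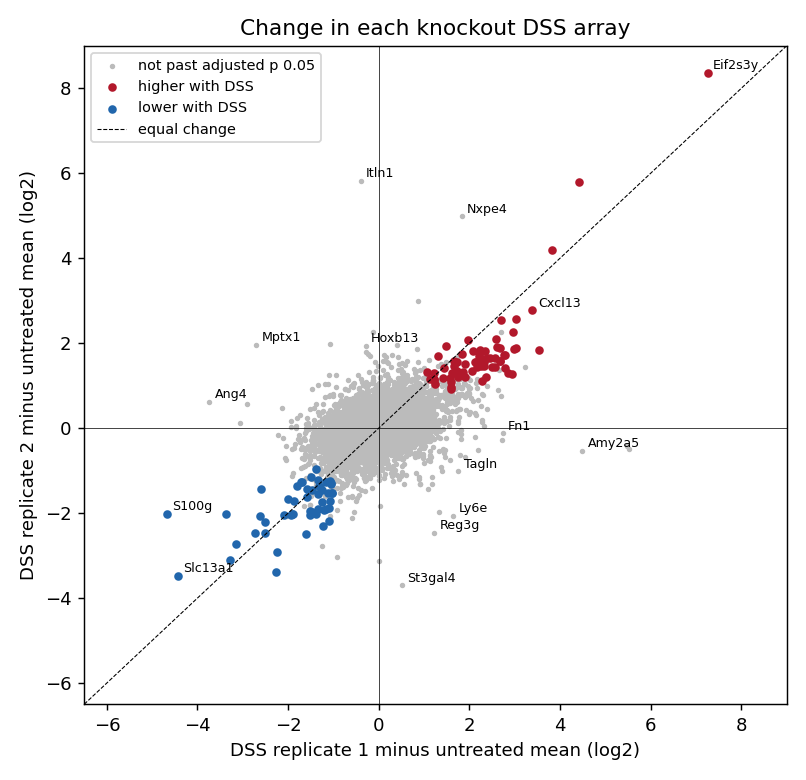
Change in knockout DSS replicate 2 against the change in DSS replicate 1, each from the mean of the 2 untreated knockout arrays (log2), 1 point per tested gene. Most red points (genes that rose) lie below the dashed line of equal change, and genes such as Itln1, Nxpe4, Reg3g and Amy2a5 lie far from it without passing.

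Some genes differed between the DSS arrays by several log2 units. Itln1, the lectin intelectin of goblet and Paneth cells, read 8.40, 8.16, 7.88 and 14.10. The antimicrobial genes Reg3g, at 12.50, 15.61, 15.28 and 11.59, and Ang4, at 14.22, 13.35, 10.04 and 14.41, varied within groups, as did Mptx1, a mucosal pentraxin, at 14.40, 11.84, 10.41 and 15.08. Ly6e, a membrane protein that acts on viral entry, read 17.17, 11.36, 15.91 and 12.20, and Nxpe4 read 5.28, 9.93, 9.44 and 12.59. None of these passed, and in Ly6e and Nxpe4 the untreated arrays lay further apart than the DSS arrays.

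The same genes were set beside their DSS change in WT, from 4 separate arrays in the same fit. Of the 68 named genes that rose in the knockout, 62 also rose in WT, and of the 50 that fell, 29 also fell. The shares of all tested genes that rose, fell or kept their sign in WT are not given here. The counts in this paragraph are therefore descriptions without a baseline. The sign in WT was the same for 69 of all 70 higher genes and 47 of all 51 lower genes. In untreated WT, 24 of the 68 lay under background in both arrays. The measured WT change was smaller than the knockout change in 13 of the 68 higher and 40 of the 50 lower named genes. The genes were chosen for their knockout change in these same arrays, which favours a smaller change in WT. These counts therefore do not test a difference between genotypes. Dcn rose by 4.65 in WT against 1.95 in the knockout, and Slc13a1 fell by 2.21 in WT against 3.96 in the knockout. Neither of these differences passed the test of the difference itself, and the split by Y-linked transcripts runs through the comparisons of both genotypes.

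The difference between the DSS changes passed for 10 of 13003 genes: 6 had a more positive change in the knockout (0.0461%) and 4 a more negative one (0.0308%). Among the 121 genes of the knockout comparison it passed for Mme alone, and for Mme it held under 9 of 16 other settings of the analysis. It was lost without untreated WT replicate 1 or 2, WT DSS replicate 1 or either knockout DSS array, and under quantile normalization and array weights. Mme read 5.91 and 5.20 in untreated WT and 7.21 and 6.76 in WT with DSS, a change of 1.43 that did not pass, against -3.19 in the knockout, and the difference was -4.62 ± 0.67 (adjusted p = 0.0324). Both untreated WT signals were under background, and with them set to background the WT change was 0.85 and the difference -4.04, with no test. The untreated knockout arrays were the brightest of all 8 for Mme. The other 9 changed with DSS in WT and did not pass in the knockout. The steroid dehydrogenases Hsd3b3 and Hsd3b2 read 17.02, 17.00, 16.29 and 16.12 and 12.74, 12.57, 11.93 and 11.66 in the knockout, and the array may not separate these relatives. The matricellular gene Ccn3 read 13.54, 13.83, 15.30 and 15.26 (1.59, adjusted p = 0.0562), with the opposite direction in WT (-5.60). Ccl5, a T cell chemokine, lay under background in all 4 knockout arrays.

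**Figure D5:**
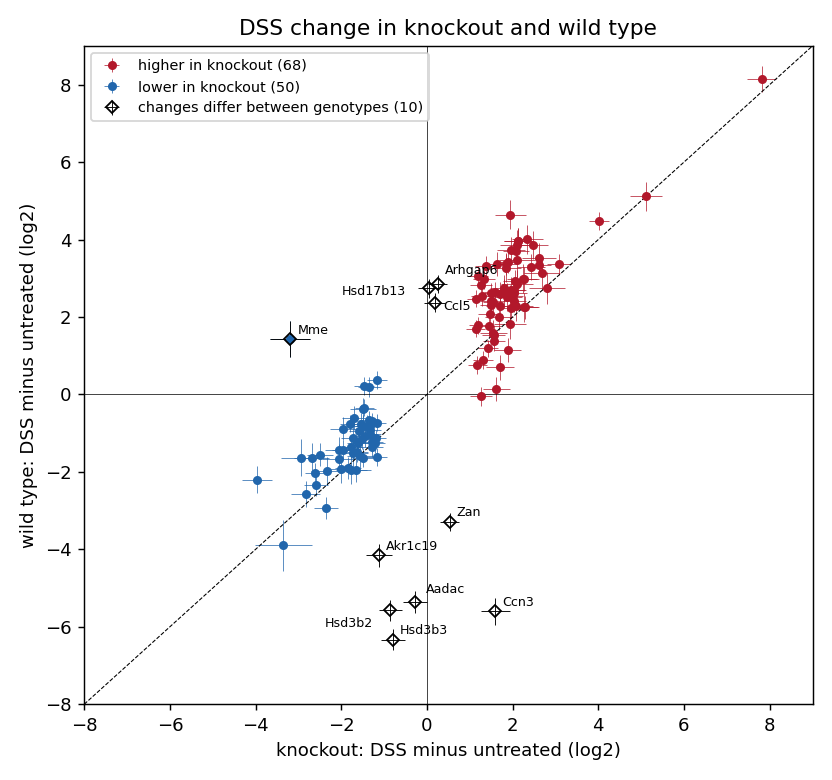
DSS change in WT against DSS change in the knockout (log2, bars are standard errors from limma) for the 68 named genes that rose (red) and 50 that fell (blue) in the knockout, and the 10 genes whose changes differed between genotypes (open diamonds). Mme, at -3.19 in the knockout and 1.43 in WT, is the 1 gene that belongs to both sets.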

How the data were processed

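Total RNA of 8 samples of mouse colon epithelial cells was labelled and hybridised to 1 Affymetrix array each, per the labels' protocols. The deposited log2 values were made with Affymetrix Expression Console, per the submitters' processing notes, with a normalization and background correction not given in the sources used here. A change in that step could shift low signals most. The values were used as deposited. Of 28846 rows, 6640 were controls, 19572 carried a single gene symbol and 2634 carried no symbol. The files name no genome build for the array rows. Where a gene had several rows (55 genes), its brightest was used. The 33.3% of genes with the lowest mean signal, under 5.15, were not tested. A set of 22 tested genes had values identical to another gene.

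In limma 3.58.1 (R 4.3.3), all 8 arrays entered a linear model of 4 group means, with empirical Bayes moderation (4 residual and 7.27 prior degrees of freedom), two-sided tests and Benjamini-Hochberg adjustment over 13003 genes at 0.05. An exact permutation test of 2 arrays against 2 cannot go below p = 0.333, so none is given. The pipeline was tested on simulated data. The number of arrays limits the precision. Same-numbered knockout arrays were not paired: their deviations from the group means correlated with r = -0.15 (WT 0.28). The 46 gene lists, the comparisons and the rule for named genes (every gene that passed without overlap, predicted genes apart, and list members of smallest p) were chosen with earlier results of these data known. Alternatives covered the filter, the rows, 2 scalings, the variance model, array weights, the arrays fitted, a replicate block and each array left out.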

Additional observations from a re-analysis of the deposited data

Results flagged for a closer look

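The DSS change differed between knockout and WT, by limma's test of the difference itself, for 10 genes (knockout change minus WT change, log2). The difference was 7.19 for Ccn3, 5.53 for Hsd3b3, 5.10 for Aadac, 4.71 for Hsd3b2, 3.82 for Zan and 3.03 for Akr1c19, all genes that fell in WT. It was -2.71 for Hsd17b13, -2.60 for Arhgap6 and -2.20 for Ccl5, which rose in WT, and -4.62 for Mme, which fell in the knockout. In 3 of these genes both arrays of at least 1 group lay under background. With such signals set to background, a choice made after seeing the data, the difference was 2.54 for Zan, whose WT DSS arrays lay under it, -4.04 for Mme and -1.49 for Ccl5. Ccl5 passed under 4 of 15 other settings of the analysis, Mme under 9 of 16, Akr1c19 under 10, and Hsd17b13 and Arhgap6 under 12. The other 5 genes passed under all 16. Aadac, an esterase, read 11.18, 10.99, 10.43 and 11.19 in the knockout arrays. Zan read 8.15, 8.36, 8.67 and 8.90, and Hsd17b13, an enzyme of lipid droplets, 11.83, 12.33, 11.99 and 12.25. Adjusted p-values ran from 0.000107 for Ccn3 to 0.0489 for Ccl5.

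Array rows without a gene symbol were not used in the comparisons. Of 1570 such rows with enough signal, 16 passed between DSS and untreated knockout arrays (1.02%), 12 higher and 4 lower. The largest change was in row TC0Y00000235.mm.2, which read 4.74 and 4.75 without DSS and 8.66 and 9.93 with DSS, so that it split the arrays as Eif2s3y, Uty and Kdm5d did. The lowest was TC1000000717.mm.2, at 10.47, 10.35, 7.51 and 6.98.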

How the results depend on the processing

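All 118 named genes kept their sign in every setting, and 8 passed under each planned one: Eif2s3y, Uty, Kdm5d, Slc13a1, Cxcl13, Serpina3n, Slc10a2 and Tmigd1. With 121 genes in all (70 higher, 51 lower), leaving out 1 array gave between 18 and 297, with 8 to 180 higher and 10 to 117 lower. The count was 43 and 18 without untreated knockout replicate 1 or 2, 48 and 297 without DSS replicate 1 or 2, and 73 without either untreated WT array. A fit of the 4 knockout arrays alone, with fewer arrays to estimate the spread, gave 14 (7 higher, 7 lower). Quantile normalization gave 30 lower genes, the cause was not tested. Every other setting moved these counts by less than 1.5 times. The replicate block gave 102 genes (61 higher, 41 lower), 99 of them shared. A crossed block, with the numbers of the 2 knockout DSS arrays alone swapped and added after seeing the data, gave 159. For the difference between genotypes, 10 genes (6 and 4), the count without 1 array lay between 5 and 26, with 5 to 8 more positive in the knockout and 0 to 20 more negative. All rows and the trended, robust variance gave 8 more negative genes each and quantile normalization 2. The block gave the same counts of 6 and 4. Of settings added after seeing the data, leaving out both arrays with pancreas transcripts gave 36 (10 and 26) and the crossed block 16 (6 and 10). No more negative gene passed without untreated WT replicate 1 or 2 or without WT DSS replicate 1. Signals near background limit the genes given as bounds, among them the chemokine Ccl8 and the complement genes C1qb and C1qc. In all, 15 genes that passed lay under background without DSS and 2 with DSS.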

Other observations

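Single heat shock and class I genes, picked from the genes most unlike between the knockout DSS arrays, varied within both knockout groups. Hspa1a, an inducible chaperone, read 9.23 and 11.93 without DSS and 12.49 and 9.90 with DSS, and Hspa1b 8.68 and 11.59 against 11.92 and 9.51. H2-Q4, a class I gene, read 9.48 and 11.84 against 12.03 and 9.74. St3gal4, a sialyltransferase, read 7.88 and 12.25 against 10.57 and 6.37. None of them passed.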
